A study of Mus musculus with 6 samples.

Results

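The 38 genes described here encode proteins of the lysosome: proteases, glycosidases, lipid-handling enzymes, protein precursors, membrane proteins and subunits of the proton pump. They were taken by symbol from the protein-coding rows of a table of 56748 genes, of which 21970 were protein-coding, and all 38 were found and tested. Ribosome footprints were sequenced from mouse Lin-c-Kit+ cells in 6 libraries, 3 from WT mice and 3 from Mov10 KO mice. All mice had been irradiated with 4.5 Gy and cells were taken 12 days later, so the series holds no unirradiated group. The labels call the cells hematopoietic stem cells, and give neither the age of the mice nor the design of the knockout allele, nor whether each library came from its own animal. The p-values may therefore measure technical spread only.

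Lysosomes are acidic compartments in which proteins, sugar chains and lipids are taken apart by hydrolases. Most of these enzymes are made at the endoplasmic reticulum, tagged with mannose 6-phosphate in the Golgi apparatus and carried to lysosomes by receptors for that tag. A proton pump, the V-ATPase, keeps the compartment acid, and heavily glycosylated membrane proteins line it. In blood-forming tissue, lysosomes are known for their abundance in macrophages and granulocyte precursors and for a role in the quiescence of stem cells. Mov10 is a helicase that acts on RNA.

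Levels are normalized reads, that is, reads on a gene divided by a size factor per library. The WT libraries held 2260348 to 2499634 reads and the Mov10 KO libraries 1118345 to 1352517, so depth and genotype cannot be told apart. A gene with 3 reads had a value of 1.84 to 2.04 in WT and of 4.02 to 4.85 in the knockout libraries. A footprint level mixes mRNA amount with translation, and no RNA-seq of these cells was used here. Mov10 itself had 110.4, 106 and 104 normalized reads in the WT libraries and 51.0, 89.0 and 46.3 in the knockout, below WT in 3 of 3 libraries. The difference did not pass (limma adjusted p = 0.0598), and among the fits without 1 library it passed only without replicate 2 of the knockout (0.00692). It also passed with TMM scaling (0.0429), library totals (0.0247), limma-voom (0.0252) and reads thinned to equal totals (0.0210). With only genes of a mean of at least 50 normalized reads fitted, it passed as well (0.0330). Kit, the receptor that defines the gate, lay between 1083 and 1115 in WT and between 1085 and 1157 in the knockout (log2 fold change 0.03, limma adjusted p = 0.787, but -0.43 with 0.00258 after cyclic loess, and below 0 without a call with TMM scaling, library totals and limma-voom). Knockout libraries also scattered more: reads differed between pairs of WT libraries with a chi-square per degree of freedom of 1.57 to 2.34, and between pairs of knockout libraries with 6.35 to 7.24.

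The lysosomal genes split in both directions between the genotypes. Of the 38, 7 were higher in the knockout, 7 were lower and 24 did not pass, with limma's moderated test on log2(value + 1) and a Benjamini-Hochberg adjusted p under 0.05 over all genes tested. The higher genes were Psap, Ctsh, Ctss, Man2b1, Cd63, Scarb2 and Atp6v1a, and the lower ones were Ctsb, Lgmn, Glb1, Neu1, Laptm4a, Laptm4b and Laptm5. The called members were 36.8% of the list, against 21.2% of the 17114 genes tested (10.3% higher and 10.9% lower). Most members were well read, however, and 33 of them had a mean of at least 50 normalized reads. Of those 33, 39.4% were called (21.2% higher, 18.2% lower), and of the 6188 protein-coding genes past the same mean 35.3% were called (21.3% higher, 14.0% lower), so that the share of called members was near that of other genes read as often. In 23 members (60.5%) the libraries of the genotypes did not overlap, against 39.8% of all genes tested, and among the well-read ones 20 of 33 (60.6%) against 54.7%. With each library scaled to its total reads instead, 2 members were higher and 11 lower, and all genes tested moved likewise, from 1757 higher and 1871 lower to 1285 and 2887. The median log2 fold change of the 38 was -0.08, that of all genes tested -0.17 and that of the well-read protein-coding genes 0.003.

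**Figure D1:**
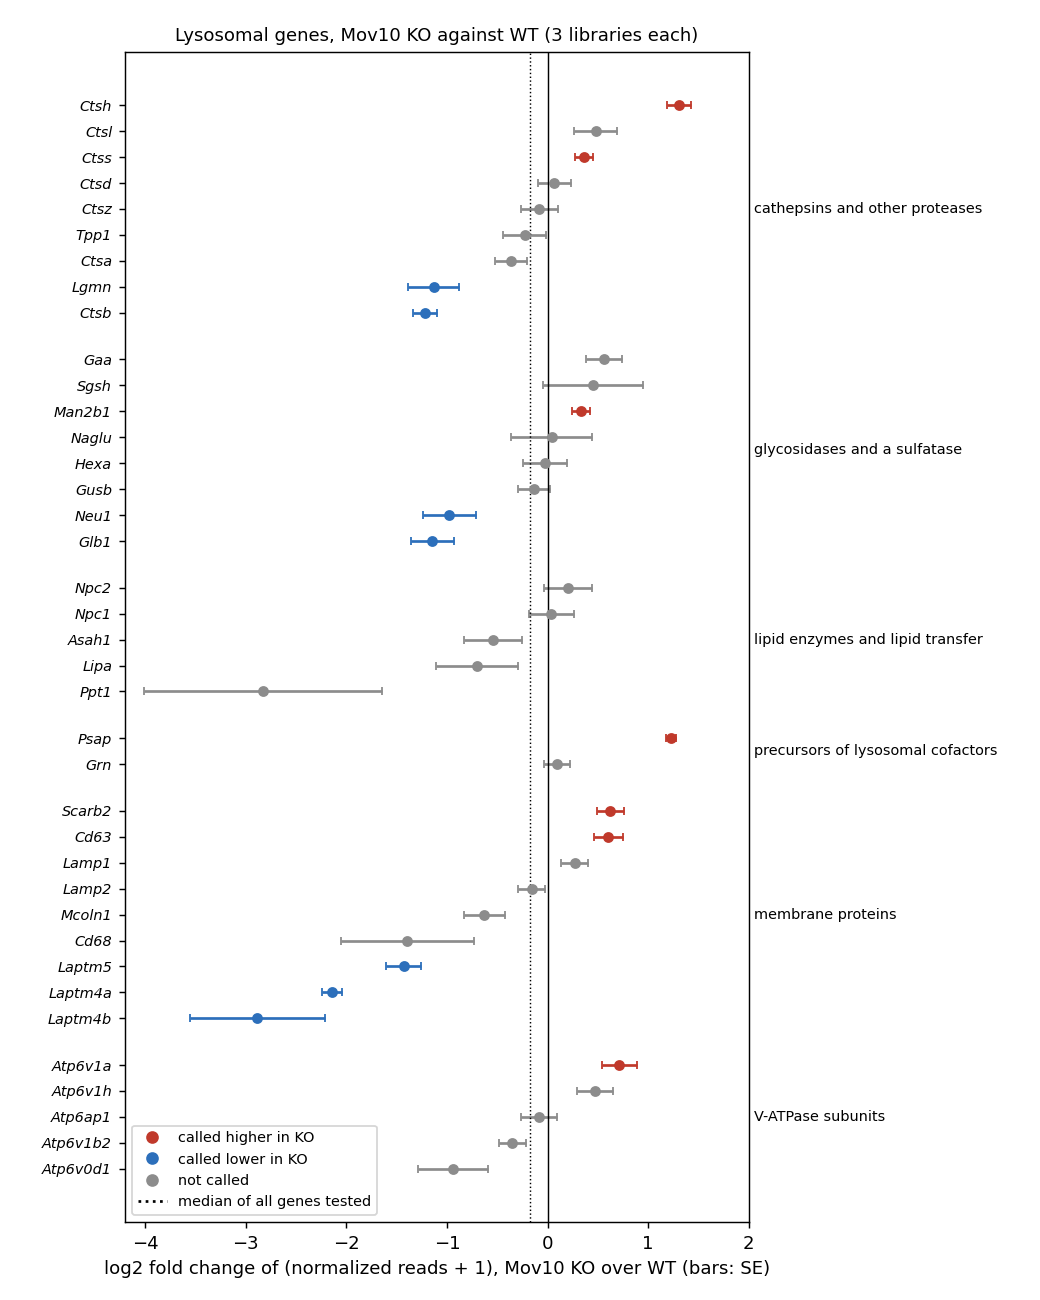
Log2 fold change of each lysosomal gene, Mov10 KO over WT, with limma's standard error as bars (3 libraries per genotype), ordered by role. Red and blue points mark the 7 genes called higher and the 7 called lower, grey points the 24 not called, and the dotted line is the median of all genes tested (-0.17); called genes of both directions stand within the proteases, the glycosidases and the membrane proteins.

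The 14 calls were not equally firm. Psap, Ctsh, Ctsb, Laptm4a and Laptm5 passed under all 21 alternative fits. The other 9 were lost in at least 1 fit that left out a WT library, after which 5 to 6 members passed in all and 1239 to 1449 genes of the whole table. Without a variance trend, 8 of the 14 passed: those 5 with Lgmn, Glb1 and Laptm4b. An edgeR quasi-likelihood test on the recovered reads called 14 of 37 members (8 higher, 6 lower), where it called 29.5% of all genes it tested, and 13 members were called by both tools. The member that edgeR added was Gaa, and Laptm4b was not tested there. At an adjusted p under 0.05, 8 members were higher and 7 lower in the authors' deposited table.

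The promoters of some members carry the sequence for which this gene group is best known, the CLEAR element, an E-box bound by the transcription factors Tfeb and Tfe3. Of the 38 members, 31 were matched by symbol to RefSeq promoters (GRCm38.p6, 250 bases before to 50 after the start site), and Asah1, Atp6v1b2, Atp6v1h, Ctsb, Ctsh, Laptm4b and Npc1 were not matched. The E-box core CACGTG, which reads the same on both strands, was found in 12 of 31 members (38.7%) and in 8.09% of 27025 genes. The longer palindrome TCACGTGA, which contains the E-box core, was found in 5 of 31 (16.1%) and in 1.12% of all genes. The stretches that hold it in these 5 members are shown, with TCACGTGA in capitals:
Ctsa (chr2:164833750-164833777, plus strand): gagcaaactgTCACGTGAtgcagatgct
Ctsa (chr2:164833767-164833794, plus strand): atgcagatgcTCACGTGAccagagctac
Ctsd (chr7:142387909-142387936, minus strand): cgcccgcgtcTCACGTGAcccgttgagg
Mcoln1 (chr8:3500463-3500490, plus strand): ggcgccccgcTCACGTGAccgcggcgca
Atp6v0d1 (chr8:105566051-105566078, minus strand): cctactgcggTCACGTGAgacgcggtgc
Atp6v1a (chr16:44139374-44139401, minus strand): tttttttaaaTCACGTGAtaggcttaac

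Of the 5 genes with TCACGTGA, Atp6v1a was higher in the knockout and Ctsa, Ctsd, Mcoln1 and Atp6v0d1 were not called. Of the 12 with CACGTG, 1 was higher and 2 were lower (Glb1 and Lgmn), and of the 19 matched members without it, 5 were higher and 3 lower. A match describes letters in a window and was not tested as a binding site.

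Psap stood apart from all other members in level. It encodes prosaposin, the precursor of the saposins that present sphingolipids to their hydrolases (chromosome 10, 60113449 to 60138376, GRCm39). It had 5037, 4516 and 4786 normalized reads in the WT libraries and 11526, 11120.2 and 10867 in the knockout. All knockout libraries lay far above all WT libraries, with a log2 change of 1.23 (SE 0.0499, limma adjusted p = 4.45e-06). After cyclic loess, which removes the trend of fold change with abundance, the log2 fold change was 0.35 and still passed (adjusted p = 0.000927). Grn encodes progranulin, a precursor cleaved to granulins in the lysosome. It had 623, 552 and 521 normalized reads in the WT libraries and 654, 668 and 504 in the knockout, and the genotypes overlapped (adjusted p = 0.633).

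Psap also decided the summed footprints of the group. The 38 genes together held 15047, 13522 and 14063 normalized reads in the WT libraries and 20631, 20175 and 20022 in the knockout. Psap made up 33.6% ± 0.348 (SD, n = 3) of that sum in WT and 55.1% ± 0.798 in the knockout. Without Psap, the other 37 genes held 9431 ± 519 normalized reads in the WT libraries and 9105 ± 50.3 in the knockout. Their share of all reads in a library was 0.610% ± 0.0275 in WT and 0.502% ± 0.00120 in the knockout, while that of Psap went from 0.309% ± 0.0140 to 0.616% ± 0.0193. No test was made on these sums, since the members were chosen with results of these data known.

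**Figure D2:**
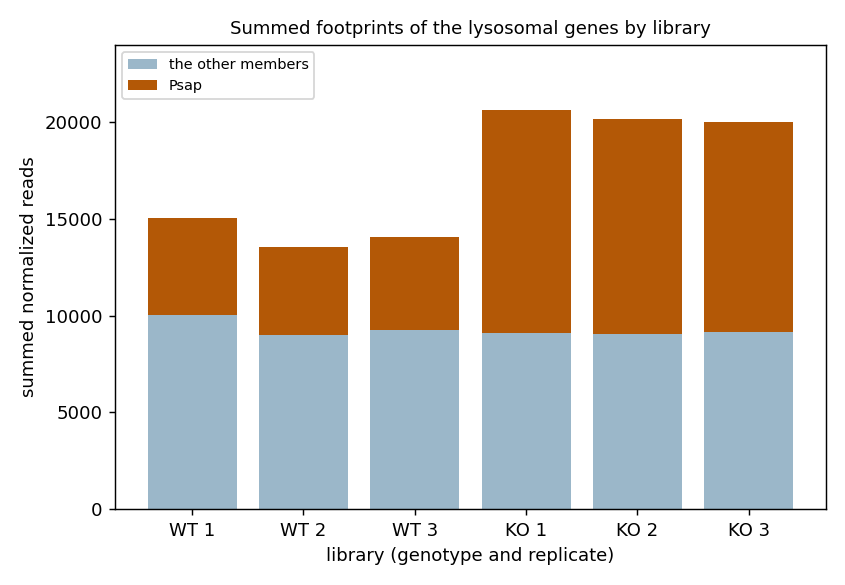
Summed normalized reads of the 38 lysosomal genes in each library, with Psap (brown) stacked on the other 37 genes (blue). The sum rises from 13522 to 15047 in WT to 20022 to 20631 in Mov10 KO, and the blue part lies between 9007 and 10010.5 in all 6 libraries.

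Among the proteases, cathepsins moved in opposite directions. Ctsh, an aminopeptidase of the papain family (chromosome 9, 89936205 to 89958142), had 312, 308 and 349 normalized reads in the WT libraries and 758, 938 and 715 in the knockout. Its log2 fold change was 1.30 (SE 0.122, limma adjusted p = 0.000216). Ctsb is a papain-like protease with both endopeptidase and peptidyl-dipeptidase activity (chromosome 14, 63359911 to 63383372). It had 1008, 838 and 865 normalized reads in the WT libraries and 433, 338 and 399 in the knockout. The knockout libraries of Ctsb all lay below those of WT, with a log2 change of -1.21 (SE 0.119, adjusted p = 0.000298). In WT, Ctsb was read more than Ctsh in every library, and in the knockout it was read less in every library, before any correction for length.

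Ctss and Lgmn are proteases known from antigen processing. Ctss (chromosome 3, 95434097 to 95463714) had 389, 387 and 408 normalized reads in the WT libraries and 528, 516 and 482 in the knockout, a log2 change of 0.37 (SE 0.0912, adjusted p = 0.0242). Lgmn, legumain, which cleaves after asparagine (chromosome 12, 102360343 to 102406072), had 130.5, 99.4 and 102 in WT and 48.3, 64.7 and 39.1 in the knockout, a log2 change of -1.13 (SE 0.253, adjusted p = 0.0158). Neither gene's genotypes overlapped. Both calls were lost without WT replicate 1, 2 or 3, with adjusted p of 0.0897, 0.106 and 0.0895 for Ctss and of 0.0956, 0.0703 and 0.0743 for Lgmn. The small difference in Ctss was also lost with library totals (adjusted p = 0.317), TMM scaling (0.0670), cyclic loess (0.450) and a replicate block (0.0587).

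The other proteases were not called. Ctsl, a broad endopeptidase, was above WT in 3 of 3 knockout libraries (73.0 to 97.4 in WT, 110.0 to 152 in the knockout, adjusted p = 0.150). Ctsa, which shields beta-galactosidase and neuraminidase, had a log2 fold change of -0.37 (adjusted p = 0.144), and overlapped between the genotypes. It passed without Mov10 KO replicate 2 (0.0444). Ctsd, the main aspartic protease, was nearly level at 98.7, 109 and 106 normalized reads in the WT libraries and 110.0, 113 and 104 in the knockout. Its log2 fold change was 0.06 (SE 0.164). Ctsz and the tripeptidyl peptidase Tpp1 overlapped as well, with log2 fold changes of -0.08 and -0.23.

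Of the 8 enzymes that degrade sugar chains (glycosidases and the sulfatase Sgsh), Man2b1 was higher and Glb1 and Neu1 were lower. Glb1, beta-galactosidase (chromosome 9, 114230144 to 114303966), had 219, 193 and 204 normalized reads in the WT libraries and 107, 66.3 and 110.0 in the knockout. Its log2 fold change was -1.14 (SE 0.217, limma adjusted p = 0.00823). Neu1, the sialidase that works in a complex with Glb1 and Ctsa (chromosome 17, 35150229 to 35154929), had 153, 164 and 159 in WT and 52.3, 108 and 91.2 in the knockout, a log2 change of -0.98 (SE 0.265, adjusted p = 0.0331). The genotypes did not overlap in either gene. The call of Glb1 was lost without WT replicate 1 (adjusted p = 0.0588) or 3 (0.0565), and that of Neu1 without any WT library (0.120, 0.140 and 0.132).

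Man2b1, the lysosomal alpha-mannosidase (chromosome 8, 85809899 to 85824911), had 1261, 1075 and 1175 normalized reads in the WT libraries and 1438, 1385 and 1597 in the knockout. Its log2 fold change was small, 0.33 (SE 0.0854, adjusted p = 0.0271), and it turned to -0.16 after cyclic loess (adjusted p = 0.211). The call of Man2b1 was also lost without WT replicates 1, 2 and 3 (0.0510, 0.129 and 0.116), without Mov10 KO replicate 3 (0.0522), and with library totals (0.396) or TMM scaling (0.0787). Gaa, the acid alpha-glucosidase that degrades glycogen, had 248, 168 and 198 in WT and 255, 345 and 304 in the knockout, without overlap, and just missed the threshold (log2 fold change 0.56, SE 0.178, adjusted p = 0.0549). It passed in 7 of 21 alternative fits, among them edgeR (adjusted p = 0.0309) and the fit without Mov10 KO replicate 1 (0.0366). Hexa, Gusb, Naglu and Sgsh overlapped between the genotypes, with log2 fold changes of -0.03, -0.14, 0.04 and 0.45. Hexa, a subunit of hexosaminidase, shows the wider scatter of the knockout, at 206 to 223 in WT and 153 to 288 in the knockout.

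None of the 5 genes for lipid enzymes and cholesterol carriers was called by limma on the normalized values, edgeR or DESeq2, and 1 of them, Ppt1, had an unadjusted limma p under 0.05. Npc1 and Npc2, which pass cholesterol out of the lysosome, had log2 fold changes of 0.04 (SE 0.223) and 0.20 (SE 0.243). Asah1, acid ceramidase, had 176, 197 and 183 normalized reads in the WT libraries and 96.6, 98.7 and 214 in the knockout. Knockout replicate 3 stood above all WT libraries of Asah1 and the other knockout libraries below them, and without replicate 3 the gene passed (log2 fold change -0.92, adjusted p = 0.00520). Lipa, the acid lipase, had 101, 84.7 and 113 in WT and 114, 32.3 and 59.3 in the knockout, and passed without Mov10 KO replicate 1 (adjusted p = 0.0328).

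Ppt1, which removes palmitate from proteins, had 57.8, 60.8 and 64.1 normalized reads in the WT libraries and 13.4, 0 and 44.9 in the knockout. All knockout libraries lay below WT, but the log2 fold change of -2.83 had an SE of 1.18 (adjusted p = 0.128). The gene passed without Mov10 KO replicate 3 (0.0338), with a replicate block (0.0147) and with limma-voom on recovered reads (0.0362). Summed over libraries, 282 WT reads stood against 41 knockout reads, 3.05-fold fewer per size factor (exact 95% interval 2.19 to 4.34, counting error only). Ppt1 overlaps Cap1 on the opposite strand, 1 of 13 members that overlap another gene with reads. Ctsb overlaps Fdft1 on the opposite strand, and Glb1 overlaps Tmppe on the same strand. Whether counting used strand is not given in the sources used here.

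The 3 genes of the LAPTM family, lysosomal proteins with several membrane spans, were all lower in the knockout. Laptm4a (chromosome 12, 8971598 to 8988742) had 799.9, 744 and 747 normalized reads in the WT libraries and 170.3, 179.5 and 166 in the knockout. Its libraries were tight in both genotypes, with a log2 change of -2.14 (SE 0.0981, limma adjusted p = 7.21e-06). Laptm5, a family member of blood cells that lowers antigen receptor levels (chromosome 4, 130640436 to 130663452), had 324, 272 and 279 in WT and 105, 90.6 and 130.2 in the knockout, a log2 change of -1.43 (SE 0.171, adjusted p = 0.000862). Laptm4b (chromosome 15, 34238174 to 34284448) was hardly read, with 12.3, 6.14 and 8.86 in WT and 1.34, 0 and 0 in the knockout (adjusted p = 0.0188). That is 42 reads in WT against 1 in the knockout, an 18.6-fold difference with an exact 95% interval of 3.16 to 752 that covers counting error only, not the wider scatter between knockout libraries. Its call was lost without WT replicates 1, 2 and 3 (0.0835, 0.0684 and 0.0835) and with DESeq2 (0.0529).

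Scarb2 and Cd63 rose. Scarb2, which carries glucocerebrosidase to the lysosome (chromosome 5, 92589173 to 92654692), had 316, 296 and 311 normalized reads in the WT libraries and 480.1, 399.5 and 556 in the knockout, a log2 change of 0.62 (SE 0.132, adjusted p = 0.0129). Cd63, a tetraspanin of late endosomes and granules (chromosome 10, 128736858 to 128748691), had 276, 229.5 and 243 in WT and 421, 315 and 408 in the knockout, a log2 change of 0.60 (SE 0.144, adjusted p = 0.0205). The genotypes did not overlap in either gene. Both calls were lost without WT replicates 1, 2 and 3 (Scarb2 0.0589, 0.0747 and 0.0697; Cd63 0.0550, 0.103 and 0.0998), with library totals (0.0586 and 0.0884) and after cyclic loess (0.0690 and 0.0714). Cd63-ps, a processed copy of Cd63, held 14 reads in all WT libraries and 0 in the knockout libraries.

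The classic marker proteins of the lysosomal membrane were not called. Lamp1 had 212, 214 and 226 normalized reads in the WT libraries and 292, 267 and 230.1 in the knockout, without overlap (log2 fold change 0.27, SE 0.132, adjusted p = 0.187), and just passed without Mov10 KO replicate 3 (0.0499). Lamp2 overlapped, at 345, 304 and 273 in WT and 306, 251 and 269 in the knockout. Mcoln1, a calcium channel of the lysosome, had 119, 107 and 86.5 in WT and 69.7, 64.7 and 65.1 in the knockout and just missed the threshold (log2 fold change -0.63, SE 0.204, adjusted p = 0.0600). It passed in 4 of 21 alternative fits, with library totals (0.0185) and without Mov10 KO replicate 1 (0.0491) for example. Cd68, a membrane protein known as a macrophage marker, had 49.3, 29.5 and 30.7 in WT and 4.02, 17.8 and 27.5 in the knockout (adjusted p = 0.176).

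**Figure D3:**
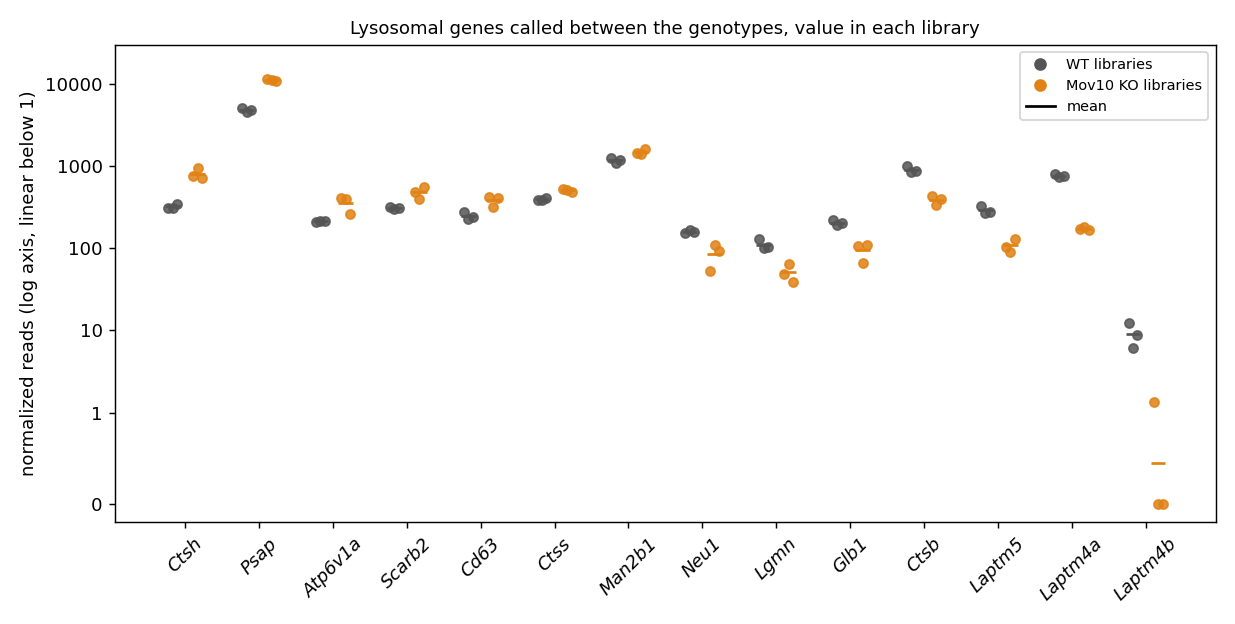
Normalized reads of the 14 called lysosomal genes in each library, on a log axis that is linear below 1, with WT in grey, Mov10 KO in orange and a line at each mean. In none of the 14 genes do the genotypes overlap; Psap lies above all others, between 4516 and 11526, and Laptm4b lies lowest, at 0 in knockout libraries 2 and 3.

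Of 5 genes for V-ATPase subunits and an accessory protein, Atp6v1a was higher. It encodes the catalytic subunit of the part that splits ATP (chromosome 16, 43905765 to 43960068), and had 209, 214 and 213 normalized reads in the WT libraries and 408, 395 and 262 in the knockout. Its log2 fold change was 0.71 (SE 0.175, limma adjusted p = 0.0228), and the call was lost without each WT library (0.0956, 0.0963 and 0.0990), without Mov10 KO replicates 1 (0.0512) and 2 (0.0559) with library totals (0.0794) and after cyclic loess (0.0536). Atp6v1b2, its partner in the same ring, had 308, 353 and 321 in WT and 263, 293 and 219.9 in the knockout, without overlap (log2 fold change -0.35, adjusted p = 0.108, and 0.0452 without Mov10 KO replicate 2). Atp6v1h was above WT and Atp6v0d1 below WT in 3 of 3 knockout libraries, with log2 fold changes of 0.47 (adjusted p = 0.0972) and -0.94 (adjusted p = 0.0921). Without Mov10 KO replicate 1 Atp6v0d1 passed (0.00797), since that library held 107 normalized reads against 55.0 and 37.6 in the others. Atp6ap1, the accessory protein, overlapped, at 366, 300.1 and 338 in WT and 338, 239 and 385 in the knockout (log2 fold change -0.08).

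Per kilobase of annotated exon, which includes untranslated parts that ribosomes do not read, Psap ranked first of the 38 in both genotypes, with 1742 normalized reads per kilobase in WT and 4071 in the knockout. Laptm4a had rank 2 in WT (415 per kilobase) and rank 11 in the knockout (93.6). Ctss had rank 3 in WT (291) and rank 2 in the knockout (375), Man2b1 went from 146 to 184, and Ctsh from 71.8 to 179. Ctsb had 149 per kilobase in WT and 64.5 in the knockout. Laptm4b was last in both genotypes, at 4.70 and 0.231. Within a genotype, the coefficient of variation over the 3 libraries had a median over members of 7.75% in WT and 19.3% in Mov10 KO. It was larger in the knockout in 30 of 38 members. The exceptions were Ctsd, Man2b1, Gaa, Psap, Lamp2, Laptm4a, Mcoln1 and Atp6v1h.

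The surrounding pathway was described from a further 151 genes in the table, of which 140 were tested. Of these, 14 were higher, 14 lower and 112 not called. That is 20.0%, near the 21.2% of all genes tested. Taking only well-read genes (mean of 50 or more), 27.3% of 22 further hydrolases and activators and 22.2% of 18 further membrane proteins were called. The share was 30% of 10 V-ATPase genes, 21.4% of 14 genes for transcriptional and nutrient control and 32.0% of 25 sorting genes. Of 2 cystatins and stefins read as often, 0 were called. All these shares lay below the 35.3% of well-read protein-coding genes, and the differences were not tested.

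Genes that sort enzymes to lysosomes held 6 higher and 3 lower members of 29 tested (median log2 fold change 0.19). Of the 25 with a mean of at least 50 normalized reads, 8 were called (32.0%), against 35.3% of protein-coding genes read as often. Both receptors for the mannose 6-phosphate tag were higher. Igf2r, the large receptor, had 355, 273 and 308 normalized reads in the WT libraries and 829, 772 and 722 in the knockout, a log2 change of 1.31 (SE 0.118, limma adjusted p = 0.000177). M6pr, the small receptor, had 240.2, 209 and 215 in WT and 350.0, 458 and 404 in the knockout, a log2 change of 0.86 (SE 0.133, adjusted p = 0.00325). The adaptor genes Ap3b1 (0.95, adjusted p = 0.00111) and Ap1b1 (0.56, adjusted p = 0.00135) were higher too, as were Gga1 and Gga2, whose products pick up the receptors. Igf2r, M6pr, Ap3b1 and Ap1b1 stayed called without any single library. Gga1 was lost without WT replicate 1 (0.0601) or 2 (0.0588), and Gga2 when any WT library was left out (up to 0.0799). The call of Ap1b1 was lost after cyclic loess (0.19, adjusted p = 0.112) and without a variance trend (0.0905). Lower were Ap3m1, the sorting receptor Sort1 and Gnptab, part of the enzyme that makes the tag (log2 fold change -0.48, adjusted p = 0.0177). All of these lower calls were lost when any WT library was left out (up to 0.105, 0.181 and 0.0971).

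Among 22 genes for transcriptional and nutrient control, 1 was higher and 2 lower (median -0.53). Tfe3, a regulator of lysosomal genes, had 40.9, 47.9 and 46.3 normalized reads in the WT libraries and 87.2, 72.8 and 120.1 in the knockout (log2 fold change 1.01, SE 0.256, adjusted p = 0.0259, up to 0.109 without a WT library). Its relative Tfeb overlapped, at 29.9, 27.6 and 32.7 in WT and 69.7, 27.5 and 36.2 in the knockout (adjusted p = 0.469). The lower genes were Rptor, the scaffold of the mTORC1 kinase complex, at -0.65 (adjusted p = 0.0320) and Lamtor4, of the complex that docks it to lysosomes, at -0.90 (adjusted p = 0.0428). Both were lost when any WT library was left out (up to 0.148 and 0.178).

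Of 39 further hydrolases and activators 5 were higher and 3 lower (median 0.07). Prcp, a carboxypeptidase, had a log2 fold change of 1.14 (adjusted p = 0.00218) and Manba, beta-mannosidase, of 0.62 (adjusted p = 0.00217, and 0.0721 without a variance trend). Acp2, an acid phosphatase, was lower, at 63.0, 57.1 and 67.5 normalized reads in the WT libraries and 29.5, 6.47 and 4.34 in the knockout (adjusted p = 0.0231, up to 0.117 without a WT library). Of 29 further membrane proteins 1 was higher and 3 lower (median -0.14). Slc36a1, an amino acid transporter, had 179, 213 and 192 in WT and 41.6, 48.5 and 30.4 in the knockout, a log2 fold change of -2.27 (adjusted p = 0.000318). Abca2 and Slc15a4 were lower and Cd9 higher, each lost when any WT library was left out (up to 0.0960, 0.157 and 0.154).

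Of 17 further V-ATPase genes, Atp6v1d, a subunit of the rotor, was higher, at 163, 168 and 164 normalized reads in the WT libraries and 477, 424 and 327 in the knockout (log2 fold change 1.29, adjusted p = 0.000828). Ccdc115, an assembly factor, Atp6ap2 and Atp6v0a2 were lower, each lost when any WT library was left out (up to 0.0842, 0.0751 and 0.0780). The 4 called of the 17 further genes were 23.5%, near the 21.2% of all genes tested. With Atp6v1a, the pump and its helpers held 2 higher and 3 lower genes among 22 tested. Of 4 tested cystatins and stefins, the inhibitors of cathepsins, limma called 0. Cst7 alone had an unadjusted p under 0.05, at 95.4, 76.1 and 67.5 normalized reads in the WT libraries and 49.6, 46.9 and 31.8 in the knockout (adjusted p = 0.0510), and edgeR called it (0.0420).

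**Figure D4:**
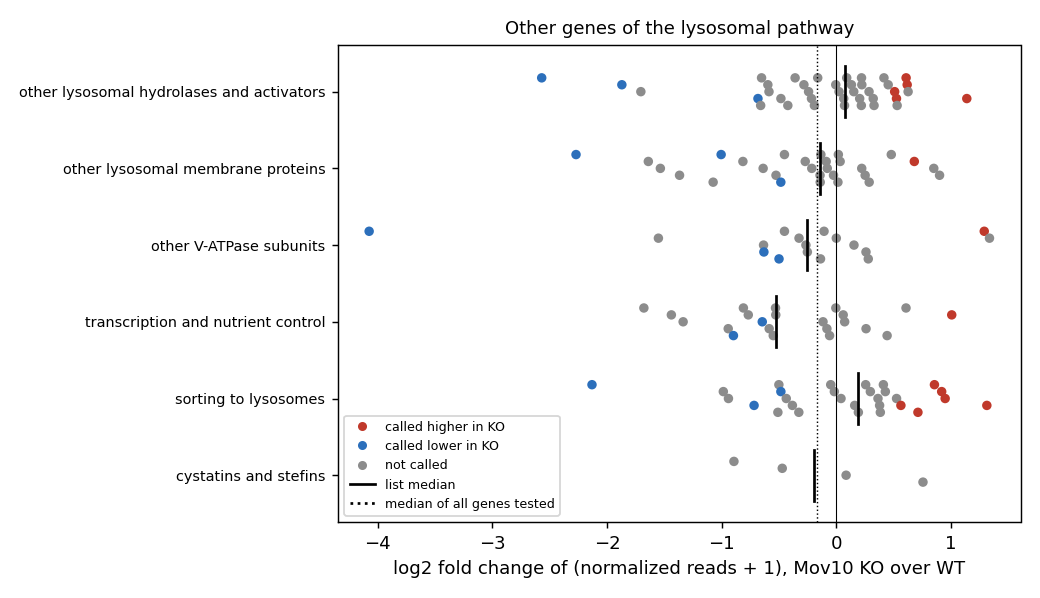
Log2 fold change, Mov10 KO over WT, of 140 further genes of the lysosomal pathway in 6 lists, with genes called higher in red, called lower in blue and not called in grey. The short black lines are list medians, from -0.53 for transcription and nutrient control to 0.19 for sorting, and the dotted line is the median of all genes tested (-0.17).

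Cell types rich in lysosomes could differ between the libraries, and in such bulk samples fewer cells of a type and less RNA per cell cannot be told apart. The counts of called markers stand against 21.2% of all genes tested and 35.3% of well-read protein-coding genes. Of 15 macrophage markers 1 was higher (Vcam1) and 1 lower (Hmox1). Their summed level ranged over 2217 to 2529 in WT and over 2915 to 3144 in Mov10 KO, in normalized reads. As shares of all reads in each library, the macrophage sums of the genotypes overlapped. C1qc, 1 of the 13 macrophage markers not called, was at 0 in 2 of 3 knockout libraries. The part of the lower knockout depth in these zeros was not tested. No macrophage marker was at 0 in a whole genotype. Of 7 monocyte markers 2 were lower, Ly6c2 and Fcgr1, with a sum of 1958 to 2235 in WT and 1409 to 1817 in the knockout. Of 12 neutrophil markers 5 were higher (Mpo, Mmp9, Lcn2, Retnlg and S100a9) and 5 lower (S100a8, Prtn3, Ngp, Mmp8 and Cxcr2), 83.3% in all. Their sum was 30828 to 36660 in WT and 46387 to 48249 in the knockout, while their median log2 fold change was -0.08. Eosinophil, basophil and mast cell markers had 4 of 8 higher (12921 to 16007, 19415 to 21435), and dendritic cell markers 1 of 6 tested lower (998 to 1049, 529 to 805). The part of these shifts in the lysosomal genes was not tested.

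Of the other marker lists, erythroid genes had 5 higher and 1 lower of 9 (972 to 1007 summed in WT, 2372 to 2446 in the knockout) and B cell genes 4 higher of 7 (238 to 251, 569.9 to 679). Plasma cell genes had 1 higher of 5 (594 to 676, 1080 to 1218), megakaryocyte genes 1 higher of 6 (497 to 567, 603 to 926) and T and NK cell genes 1 lower of 7 (317 to 393, 245 to 272). Gp1bb, a megakaryocyte gene, was at 0 in all libraries. Of 10 stem and progenitor genes Spi1 was higher, and their sum in normalized reads overlapped between the genotypes (1499 to 1528, 1509 to 1622). Taken as a share of all reads in each library, the knockout sums of these genes all lay below those of WT. The megakaryocyte sums of the genotypes overlapped as shares of all reads.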

How the data were processed

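The table deposited by the authors holds a signal per gene and library, reads over a size factor: divided by the library's smallest step, 99.98% of values above 0 came out whole (tolerance 0.05 read). The log2 fold changes and p-values in it were deposited by the authors, with no test named in the sources used here. The other settings (aligner, counting tool, annotation, strand use) are likewise not given in the sources used here, and the genome build is GRCm39, per the submitters' processing notes. Footprints of 24 to 36 nt were kept, per the labels' protocols.

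A single limma fit (version 3.58.1, R 4.3.3) covered the 17114 genes whose mean reached 1 normalized read. It used log2(value + 1), a genotype term and eBayes with a trend, and calls were made at 0.05 after Benjamini-Hochberg adjustment. Left out of the fit were 5 genes whose values are multiples of the other genotype's step; none is a member. Reads carry no molecular identifiers. The alternatives included edgeR 4.0.16 and DESeq2 1.42.0 on recovered reads, and a replicate block. The fits were tested on simulated data. Members and lists were chosen with earlier results of these data known. By rule, all members are accounted for, called ones with every library's value, and from each further list up to 4 genes with the smallest p, plus Tfeb and Tfe3; other genes named were chosen after their values were seen. A gene that the rule names is not reported here. The plan of full values for the 3 best-read genes not called was widened to more members. Same-numbered libraries did not deviate together (correlations of -0.0294, -0.00550 and -0.0211 over 6307 genes), so the numbers were not used as pairs.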

Additional observations from a re-analysis of the deposited data

How the results depend on the processing

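Over 21 alternative fits and a stricter threshold, 719 of 830 values of single members kept their direction and side of the threshold, 57 lost a call and 28 gained one. The direction changed in 26 values of 10 genes, of which only Man2b1 was called (log2 fold change -0.16 after cyclic loess). Of 699 values of 32 other named genes, 536 kept both, and 4 changed direction, all of Kit, which was lower with TMM scaling, library totals and limma-voom and called lower after cyclic loess (-0.43). The called members numbered 14, and 8 without a variance trend and 6 at an adjusted p under 0.01. The higher ones numbered 7, and 2 with library totals, after cyclic loess, without a variance trend and at an adjusted p under 0.01. The lower ones numbered 7, and 11 with library totals and 4 at an adjusted p under 0.01. Leaving out single libraries, 5 to 17 members were called, 2 to 7 higher and 3 to 10 lower, with the low ends always without a WT library. The other lysosomal genes called numbered 28, 8 without a variance trend, 9 at an adjusted p under 0.01 and 8 to 35 with a library left out. Genome-wide, 3628 genes were called, 1427 at an adjusted p under 0.01 and 1239 to 4585 with a library left out. The members' median log2 fold change of -0.08 was -0.31 with library totals, -0.17 with TMM scaling, -0.23 after cyclic loess and -0.16 to -0.029 with a library left out. The median of all genes tested shifted by -0.22 with library totals, by 0.17 after cyclic loess and by 0.39 in DESeq2, which covered 28131 genes, and the higher share of genome-wide calls was 48.4%, 30.8% with library totals, 56.1% in edgeR and 65.4% to 68.4% without a WT library. The replicate block gave 16 called members, 7 higher and 9 lower, and 3245 genes; it lost Ctss and added Gaa, Ppt1 and Atp6v0d1. The cause of these changes was not tested. Laptm4b, Ppt1, Cd68, Naglu and Sgsh each had a mean under 50 normalized reads, and the part of depth in their results was not tested.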
